A study of Mus musculus with 4 samples.

Results

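Chemokine receptors are G protein-coupled receptors that steer leukocytes along gradients of chemokines, and each leukocyte type carries its own set of them. The 9 members of this set, chosen by gene symbol, were followed in single-cell RNA sequencing of tumors from the DLA (Dalton's lymphoma ascites) mouse model: Ccr1, Ccr2, Ccr7, Cxcr2, Cxcr3, Cxcr4, Cxcr5, Cx3cr1 and the atypical receptor Ackr3. They are 9 of the 32285 genes in the matrices. Ccr2 binds Ccl2 and its relatives and is known for bringing monocytes out of the bone marrow. Ccr1 is a receptor of monocytes and neutrophils, Cxcr2 of neutrophils, Cxcr3 of activated T cells, Ccr7 of cells that home to lymph nodes, Cxcr5 of follicular B cells, and Cx3cr1 of resident macrophages and some monocytes. Cxcr4 is a widely used receptor for Cxcl12, which Ackr3 also binds without G protein signaling.

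The 2 control libraries (Control 1 and Control 2) came from tumors that the labels call untreated, while a legend of the study's supplement speaks of vehicle controls. The 2 SP11-treated libraries (Treated 1 and Treated 2) came from mice given the HSP90 inhibitor SP11 by mouth, at 30 mg/kg for 17 days. In all of them DLA cells had been injected into the peritoneum of Swiss albino mice. Neither the age of the mice nor whether each library is 1 animal or a pool is stated in the sources used here, so p-values measure the spread between these libraries only.

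Cells were sorted into classes by UMIs (unique molecular identifiers, one per captured RNA molecule) of marker genes that exclude chemokine receptors. Values for 4 libraries are given with the controls first, each group by replicate. The kept cells numbered 916, 566, 1831 and 1091, with 9574906 to 13024964 UMIs per library. The B cell gate held 1, 0, 164 and 156 cells, and the T cell gate 10, 1, 17 and 83. The myeloid gate held 15, 3, 187 and 110 cells, the neutrophil gate 4, 2, 13 and 44, the dendritic-like gate 0, 1, 12 and 15, and the tumor gate 842, 502, 1216 and 560. The myeloid share of the kept cells was 1.08% ± 0.783 in the controls and 10.1% ± 0.0923 in the SP11-treated libraries (SD, n = 2 each), which did not overlap. With 2 libraries a group, the two-sided exact permutation test gave p = 0.333, the smallest it allows. The libraries of a pair shared 54 to 215 cell barcodes.

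Gene positions below follow the GENCODE vM21 annotation of mouse genome build GRCm38, which is mm10. Ccr1 (ENSMUSG00000025804, chr9:123962124-123968692, minus strand) and Ccr2 (ENSMUSG00000049103, chr9:124101950-124113557, plus strand) lie near each other, and no other annotated gene overlaps either. Cxcr2 (ENSMUSG00000026180) is at chr1:74153989-74161246, Cxcr4 (ENSMUSG00000045382) at chr1:128588199-128592293, Ackr3 (ENSMUSG00000044337) at chr1:90203980-90216751, Cxcr3 (ENSMUSG00000050232) at chrX:101731535-101734269 and Ccr7 (ENSMUSG00000037944) at chr11:99144196-99155077, also without overlaps. Cxcr5 (ENSMUSG00000047880, chr9:44511787-44561877) shares 110 bases with Bcl9l on the other strand. Cx3cr1 (ENSMUSG00000052336, chr9:119901616-120069879) is annotated over 168264 bases and overlaps 9 other genes. The 3 on its own strand are Gorasp1, Csrnp1 and Xirp1, so its counts may hold reads of other genes and are uncertain.

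The 250 bases before the RefSeq start (build GRCm38.p6) are shown for a receptor found in myeloid cells and neutrophils, for one found in neutrophils, and for the member with the largest share of its UMIs in tumor-gated cells. Capitals mark GAGGAA, the core bound by the myeloid factor PU.1, or its reverse complement TTCCTC.
Ccr1, chr9:123968693-123968942, minus strand: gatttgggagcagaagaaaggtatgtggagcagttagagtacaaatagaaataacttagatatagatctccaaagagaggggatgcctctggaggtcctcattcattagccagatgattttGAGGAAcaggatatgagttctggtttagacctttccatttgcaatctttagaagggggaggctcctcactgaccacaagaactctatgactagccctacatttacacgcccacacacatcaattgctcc
Cxcr2, chr1:74153744-74153993, plus strand: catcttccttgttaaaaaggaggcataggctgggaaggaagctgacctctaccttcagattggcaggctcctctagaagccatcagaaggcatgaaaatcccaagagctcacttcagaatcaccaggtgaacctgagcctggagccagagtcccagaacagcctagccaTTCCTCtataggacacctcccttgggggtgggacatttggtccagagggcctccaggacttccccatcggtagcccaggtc
Ackr3, chr1:90203730-90203979, plus strand: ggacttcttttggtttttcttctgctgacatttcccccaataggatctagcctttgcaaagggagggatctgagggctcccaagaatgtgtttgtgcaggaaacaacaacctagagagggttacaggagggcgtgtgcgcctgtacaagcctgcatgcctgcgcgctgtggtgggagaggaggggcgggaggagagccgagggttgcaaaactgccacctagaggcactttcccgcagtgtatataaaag
The stretches of Ccr1, Cxcr2 and Cxcr3 held 1 match each, and those of Ccr2, Cxcr4, Cx3cr1 and Ackr3 held 0. Of 32851 promoters of the same length in the table, 23.3% held a match on either strand, so a match is frequent. RefSeq entries were matched for 7 of the 9 members, all but Ccr7 and Cxcr5.

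Over all kept cells, 6 receptors of immune cells rose in the SP11-treated libraries and 2 members did not pass the test. Ccr2, Ccr7, Cxcr2, Cxcr3 and Cxcr5 passed the filter on low counts only through the SP11-treated libraries, where they are high. The 8 tested members kept their result without that filter. Ccr2 had 5, 6, 117 and 158 UMIs, or 0.513, 0.627, 9.0 and 12.1 CPM (the UMIs of a gene scaled to 1000000 UMIs of the sum). Its log2 fold change was 4.03 (SE 0.328, edgeR quasi-likelihood test, Benjamini-Hochberg adjusted p = 5.64e-08). In that comparison 9.11% of the 12149 genes tested were called higher and 1.63% lower. Levels in a mix of cells cannot tell more cells of a type apart from more RNA per cell.

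The receptors of lymphocytes had at most 6 UMIs in either control. Ccr7 had 0, 1, 22 and 31 UMIs (log2 fold change 4.89, SE 0.789, edgeR adjusted p = 0.000227). Cxcr3 had 1, 2, 12 and 35 UMIs (3.29, SE 0.735, adjusted p = 0.00463), and Cxcr5 had 6, 3, 28 and 37 (2.24, SE 0.474, adjusted p = 0.00291). For each of the 3 genes both SP11-treated libraries lay above both controls in CPM.

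Cxcr2, the neutrophil receptor for Cxcl1 and Cxcl2, had 2, 0, 18 and 45 UMIs (log2 fold change 4.25, SE 0.777, adjusted p = 0.000806). Ccr1 was present in every library, with 14, 9, 41 and 65 UMIs or 1.44, 0.940, 3.15 and 4.99 CPM. It rose less, by a log2 fold change of 1.61 (SE 0.365, edgeR adjusted p = 0.00540). The call for Ccr1 was lost without Treated 2, a fit that leaves a single SP11-treated library. With DESeq2 the calls for Ccr1 (adjusted p = 0.0563) and, narrowly, Cxcr3 (adjusted p = 0.0503) were lost.

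Ackr3 and Cx3cr1 did not pass. Ackr3 stayed between 2.77 and 3.38 CPM in the 4 libraries (log2 fold change -0.03, SE 0.296, edgeR adjusted p = 0.970), and Cx3cr1 between 1.23 and 2.00 CPM (0.11, SE 0.401, adjusted p = 0.907). Cxcr4 had 2, 0, 5 and 14 UMIs and was too low to be tested. Of the 9 members, 7 had both SP11-treated libraries above both controls and 0 had both below. Among all 13787 genes with at least 15 UMIs these shares were 40.6% and 9.73%.

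**Figure D1:**
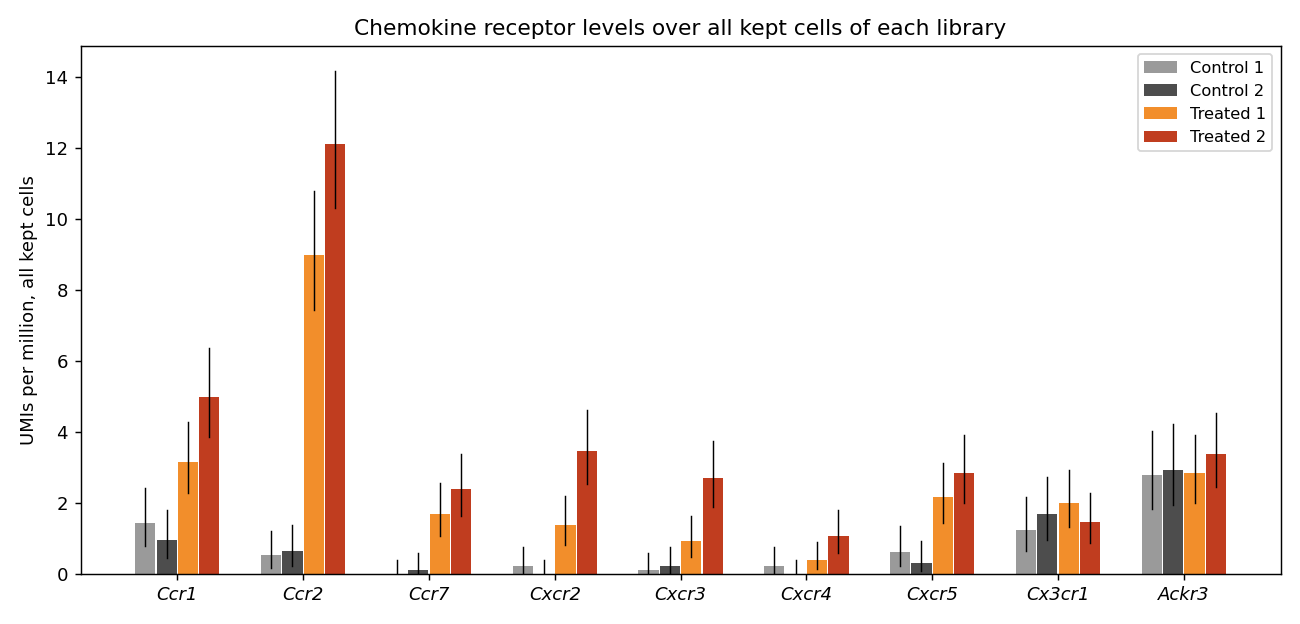
Bars give CPM of each receptor over all kept cells, one bar per library, and black lines are exact Poisson 95% intervals of the counts. Ccr2 reached 9.0 and 12.1 CPM with SP11 and stayed at 0.513 and 0.627 without it, while Ackr3 and Cx3cr1 were at like levels in all 4.

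The UMIs of the receptors came from different cells in the SP11-treated libraries. Of 275 Ccr2 UMIs, 51.6% were in myeloid-gated cells, 5.82% in T cells, 5.45% in dendritic-like cells and 14.2% in tumor-gated cells. Of 106 Ccr1 UMIs, 41.5% were in myeloid-gated cells and 12.3% in neutrophils. Of the 63 Cxcr2 UMIs, 36.5% were in neutrophils and 41.3% in the far more numerous tumor-gated cells. T cells held 42.6% and B cells 21.3% of the 47 Cxcr3 UMIs, and B cells held 39.6% and tumor-gated cells 26.4% of the 53 Ccr7 UMIs. Of the 65 Cxcr5 UMIs, 44.6% were in tumor-gated cells and 36.9% in B cells, and all 9 of the controls were in tumor-gated cells. Tumor-gated cells held 85.2% of the Ackr3 and 71.1% of the Cx3cr1 UMIs in the SP11-treated libraries, and 92.7% and 92.9% in the controls.

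**Figure D2:**
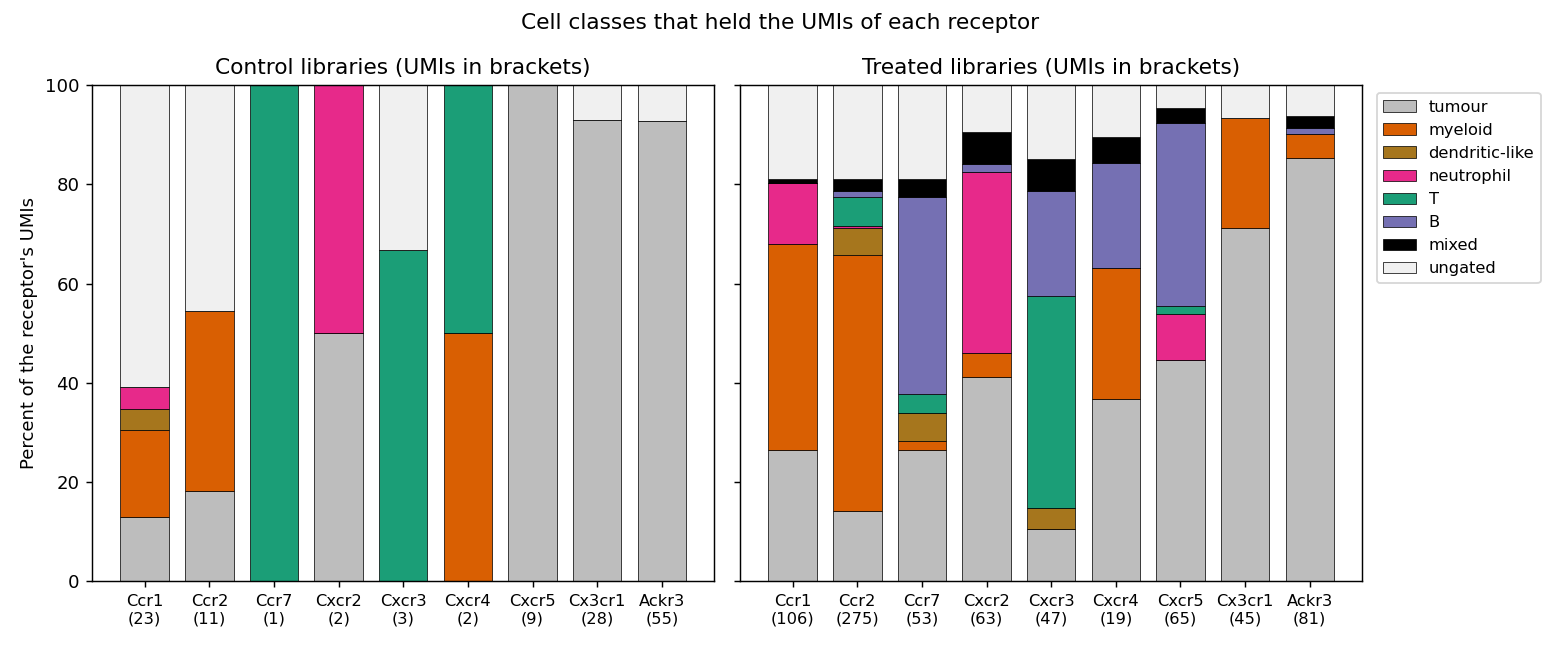
Stacked bars give the percent of each receptor's UMIs that fell in each cell class, summed over the 2 libraries of a group, with the number of UMIs in brackets. In the Treated panel myeloid-gated cells held 51.6% of the Ccr2 UMIs, whereas tumor-gated cells held most UMIs of Ackr3 and Cx3cr1 in both panels; several Control bars rest on 1 to 3 UMIs.

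The levels within each class were then compared in the SP11-treated libraries, where every class had at least 10 cells in both. A class was tested against the mean of the other classes with edgeR. Of the 9 members, Ccr1, Ccr2, Cxcr2 and Cxcr3 passed the filter on low counts. Cxcr2 passed it only through neutrophils and Cxcr3 only through T cells, the classes where each is high. The 7 receptor and class pairs called higher kept their calls without the filter. The share of the 3612 tested genes called higher was 16.1% in B cells, 6.56% in T cells, 20.8% in myeloid cells, 11.3% in neutrophils, 5.34% in dendritic-like cells and 42.9% in tumor cells. The share called lower was 3.65%, 2.96%, 2.41%, 6.64%, 1.11% and 21.3% in the same order. Fitted fold changes are not given for this comparison, since many classes had 0 UMIs and a fitted value then depends on the prior count.

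Ccr2 was highest in myeloid and dendritic-like cells. Myeloid-gated cells had 265 CPM in Treated 1 and 361 CPM in Treated 2 (56 and 86 UMIs), and dendritic-like cells had 357 and 281 CPM (5 and 10 UMIs). The order of these 2 classes differed between the libraries, and their exact Poisson intervals overlapped. T cells had 189 CPM (16 UMIs) in Treated 2 and 0 UMIs in Treated 1, where 3 counts in the 17 cells would be 197 CPM. B cells had 11.2 and 3.43 CPM and tumor-gated cells 2.52 and 0.767 CPM.

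Ccr2 was called higher in myeloid cells (edgeR adjusted p = 4.16e-26), dendritic-like cells (adjusted p = 2.67e-05) and T cells (adjusted p = 0.00479), and lower in B cells (adjusted p = 0.0174) and tumor cells (adjusted p = 1.44e-06). In CPM its level in Treated 1 and Treated 2 was 3.57 and 3.61 times the mean of the other 5 classes in myeloid cells, 6.41 and 2.41 times in dendritic-like cells, and 0 and 1.40 times in T cells. The fitted mean is taken on the log scale, and for T cells the CPM over both libraries lay below that of the other classes (0.721 times). The T cell call was lost with DESeq2 (adjusted p = 0.150) and without the tumor class (edgeR adjusted p = 0.232). A Ccr2 UMI was found in 24.6% and 41.8% of the myeloid-gated cells, at a median of 995 and 1893 UMIs per cell. In B cells, a type that does not use Ccr2 as a main receptor, it was found in 1.22% and 0.641% of the cells at medians of 884.5 and 1644.5.

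Ccr1 was found in myeloid cells of both libraries, at 94.5 and 101 CPM (20 and 24 UMIs). Neutrophils had 351 CPM (13 UMIs) in Treated 2 and 0 UMIs in Treated 1, whose 13 neutrophils allow up to 219 CPM at 3 counts. B, T and dendritic-like cells had 0 UMIs of Ccr1 in both libraries. The exact Poisson upper limits for T and dendritic-like cells were 242 and 263 CPM in Treated 1 and 43.5 and 103 CPM in Treated 2. Ccr1 was called higher in myeloid cells (edgeR adjusted p = 5.95e-08) and in neutrophils (adjusted p = 7.43e-08), and neither call held with DESeq2 (adjusted p = 0.487 and 0.352). The neutrophil value rests on Treated 2 alone.

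Ccr1 and Ccr2 were also counted together in single myeloid-gated cells. In Treated 1, 14 cells had only Ccr1, 41 only Ccr2 and 5 both, where 4.67 would carry both if the 2 were independent. In Treated 2 these numbers were 12, 38 and 8, against 8.36. At these depths most cells with a transcript give no UMI of it, so the counts do not divide the cells into types.

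Cxcr2 was a gene of neutrophils. It had 146 CPM (2 UMIs) in Treated 1 and 567 CPM (21 UMIs) in Treated 2 there, 109 and 207 times the mean of the other classes. The other classes ranged from 0 to 12.6 CPM. Neutrophils were called higher (edgeR adjusted p = 4.70e-14). A Cxcr2 UMI was found in 43.2% of the 44 neutrophils of Treated 2 (95% exact Clopper-Pearson interval 28.3% to 59.0%) at a median of 682.5 UMIs per cell. In T cells 0 of 83 had a UMI, which allows a share of cells with a UMI of up to 3.61% at 3 counts (exact upper limit 4.35%). These intervals cover counting error only. Hemoglobin genes took 318812 CPM of the Treated 1 neutrophils and 115868 CPM of those of Treated 2, and the call was kept without them.

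Cxcr3, which binds Cxcl9 and Cxcl10, was highest in T cells, at 131 CPM (2 UMIs) and 212 CPM (18 UMIs), and was called higher there (edgeR adjusted p = 1.15e-07). B cells had 11.2 and 27.4 CPM (edgeR adjusted p = 0.0950) and dendritic-like cells 0 and 56.1 CPM (adjusted p = 0.413), and neither passed. Myeloid cells and neutrophils had 0 UMIs of Cxcr3 in both libraries, with exact Poisson upper limits for neutrophils of 269 and 99.6 CPM. The T cell gate also held Nkg7, a gene of cytotoxic lymphocytes, at 1704 and 1639 CPM, while the NK cell genes Ncr1 and Klrb1c were at 0.

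The remaining members passed no filter on low counts in the class comparison. Ccr7 had 33.7 and 51.4 CPM (6 and 15 UMIs) in B cells. In dendritic-like cells it had 143 and 28.1 CPM, but from 2 and 1 UMIs, and in T cells 65.5 and 11.8 CPM from 1 UMI each. Cxcr5, the receptor for Cxcl13, had 33.7 and 61.7 CPM (6 and 18 UMIs) in B cells. In neutrophils Cxcr5 had 162 CPM (6 UMIs in 6 cells) in Treated 2 and 0 in Treated 1. Without the filter, edgeR called Ccr7 (adjusted p = 0.00388) and Cxcr5 (adjusted p = 0.000338) in B cells and Cxcr5 in neutrophils (adjusted p = 0.0253).

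Cx3cr1 among the immune classes was seen in myeloid cells alone, at 28.4 and 16.8 CPM (6 and 4 UMIs). B, T, neutrophil and dendritic-like cells had 0 UMIs of it in both libraries. The exact Poisson upper limits were 20.7 and 12.6 CPM in B cells. In T, neutrophil and dendritic-like cells they were 242, 269 and 263 CPM in Treated 1 and 43.5, 99.6 and 103 CPM in Treated 2. Those limits lie above the myeloid levels, so a like level in these 3 classes is not excluded. Without the filter Cx3cr1 was called in myeloid cells (edgeR adjusted p = 0.0463). Ackr3 had 9.45 and 8.41 CPM in myeloid cells, from 2 UMIs in each library, and 2.52 and 3.32 CPM in tumor-gated cells. Cxcr4 was low in every class, with at most 4 UMIs in any class and library.

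**Figure D3:**
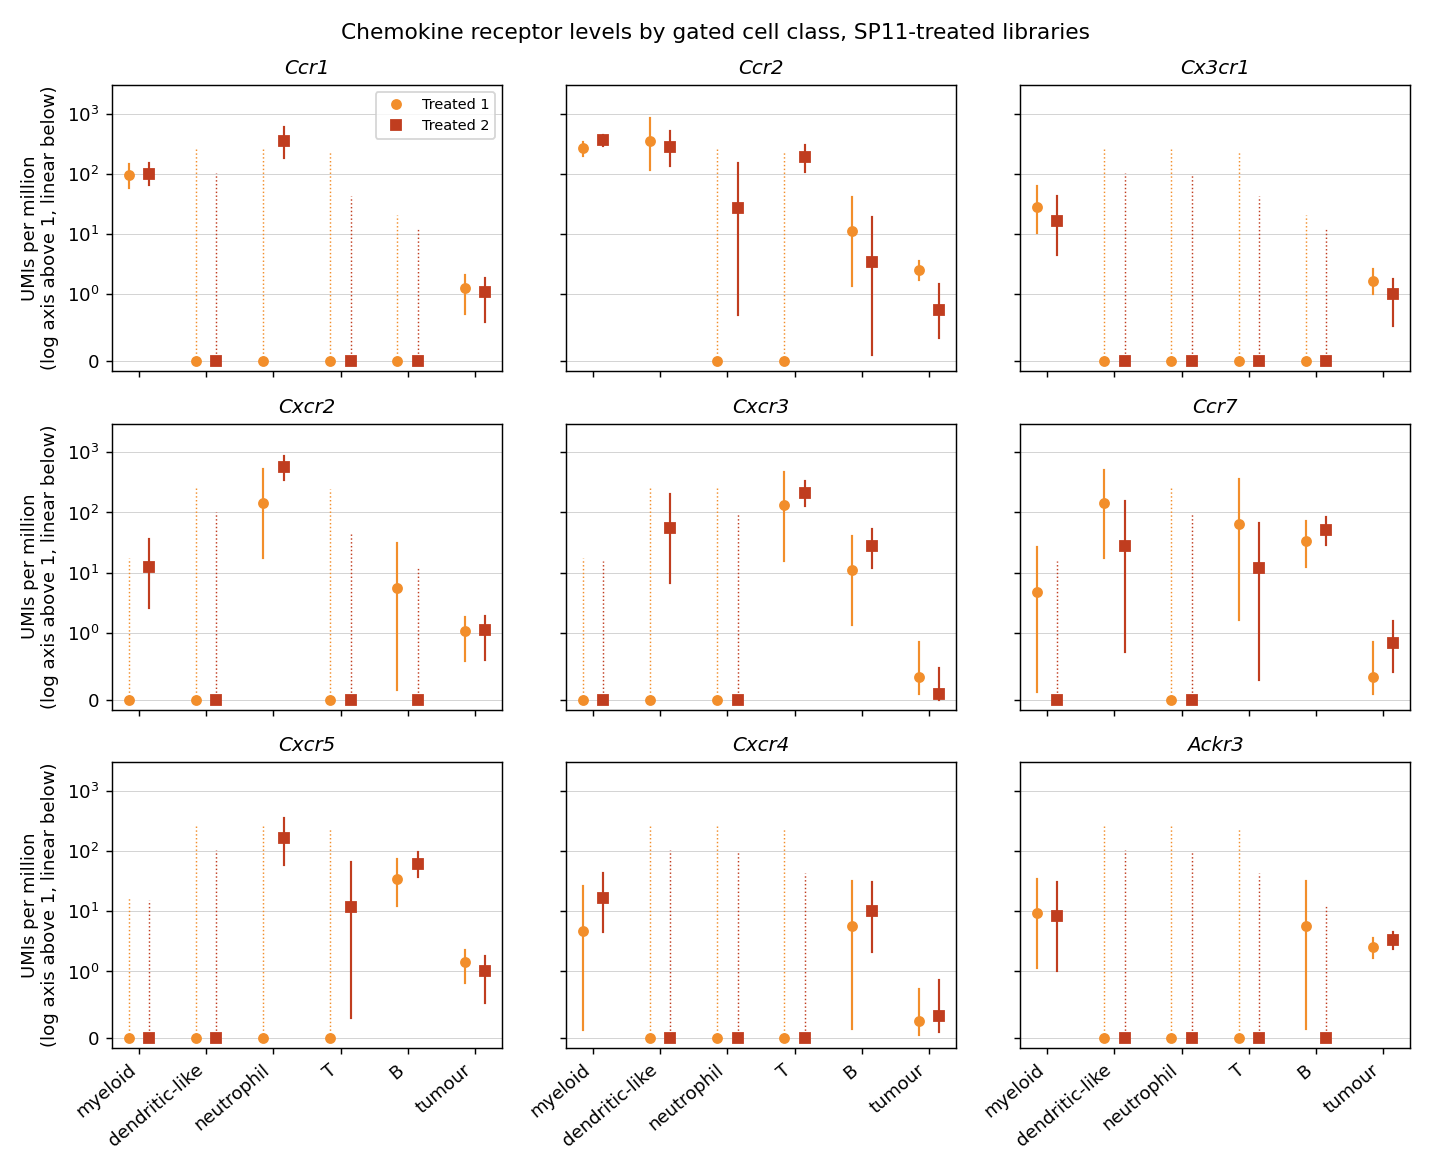
Each panel gives CPM of a receptor in 6 gated classes for Treated 1 (circles) and Treated 2 (squares), on an axis that is logarithmic above 1 and linear below. Lines are exact Poisson 95% intervals, dotted for 0 UMIs. Ccr2 stands at 265 to 361 CPM in myeloid and dendritic-like cells, Cxcr2 at 146 and 567 CPM in neutrophils and Cxcr3 at 131 and 212 CPM in T cells.

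The genes most alike in pattern over the 12 class-by-library sums were named for each member with at least 30 UMIs, as a description. For Cxcr2 they were Il1r2, Cstdc4 and Stx11 (Pearson r 0.982 to 0.990 of log2(CPM + 50)), and for Cx3cr1 Cfb, Fcna and Folr2 (0.986 to 0.996). For Ccr2 they were Arhgap31, Anxa7 and Ms4a4c (0.909 to 0.915), for Ccr1 Klra2, Ltbp3 and Rin2 (0.972 to 0.992) and for Cxcr3 Sesn3, St6galnac3 and Lck (0.923 to 0.932), of which Lck is the T cell receptor kinase. For Cxcr5 they were Zfp438, Zscan29 and Zfp821, for Ccr7 Zfp280d, Sipa1l1 and Mbd5, and for Ackr3 Phka2, Scamp1 and Asph. The sums share libraries and differ in depth, and few UMIs stand behind each.

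Other genes of chemotaxis were counted in the same comparison. Of 23 ligands of the members, 10 were tested and 9 were called higher in myeloid cells, where 20.8% of all tested genes were called higher. The 10 had a median fitted log2 fold change of 5.33 against 0.387 over all genes. Fitted values of genes with 0 UMIs in other classes are no bound. Among the 9 called were Pf4 at 312 and 193 CPM, Cxcl1 at 170 and 214 CPM and Ccl9 at 856 and 954 CPM in Treated 1 and Treated 2. T cells had Ccl5 at 5505 and 8252 CPM, and neutrophils had Cxcl2, a ligand of Cxcr2, at 4086 and 10642 CPM. Some were called higher in more than one class: Cxcl2 and Ccl9 in myeloid cells and neutrophils, and Pf4 in myeloid and B cells.

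Among other chemokine receptors, Cxcr6 was called in T cells (197 and 236 CPM) and the atypical receptor Ccrl2 in myeloid cells (147 and 193 CPM) and neutrophils (219 and 459 CPM). Among 8 receptors for other attractants, S1pr1, Gpr183 and S1pr4 were called in B cells, with S1pr1 at 146 and 154 CPM. Neutrophils had Fpr1, the receptor for bacterial formyl peptides, at 511 and 297 CPM, and C5ar1, the receptor for complement C5a, at 584 and 1702 CPM. C5ar1 was also called higher in myeloid cells, and Gpr183 in T cells. Of 14 tested genes of receptor signaling and migration, 11 were called lower in tumor cells and 0 higher, where 21.3% of all genes were called lower.

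The effect of SP11 within myeloid cells was limited by the few control cells. In the myeloid gate, Ccr2 had 4, 0, 56 and 86 UMIs, or 152, 0, 265 and 361 CPM. It did not pass (log2 fold change 1.84, SE 0.677, edgeR adjusted p = 0.121). The exact Poisson interval of Control 1, 41.3 to 389 CPM, overlapped those of Treated 1 (200 to 344) and Treated 2 (289 to 446). The upper limit for the 0 UMIs of Control 2 was 403 CPM. Ccr1 did not pass either (0.16, SE 0.794, adjusted p = 0.934). Of 1841 genes, 3.04% were called higher and 0.543% lower.

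A wider gate was added after the data were seen, in which cells of no class with at least 3 UMIs of Tyrobp and Fcer1g joined the myeloid cells. It held 36, 19, 239 and 151 cells, of which 21, 16, 52 and 41 were added ones that the 9 markers had left out. The controls were thus mostly added cells and the SP11-treated libraries mostly cells of the 9-marker gate, and the part of this in the differences was not tested. In the added cells alone Ccr2 had 0, 3, 14 and 25 UMIs, or 0, 68.3, 236 and 269 CPM. Ccr2 had 63.8, 56.5, 258 and 336 CPM (4, 3, 70 and 111 UMIs). Both SP11-treated libraries lay above both controls, as for 32.5% of 5183 genes. Its log2 fold change was 2.35 (SE 0.465, edgeR adjusted p = 0.00371), and the median over all genes was 0.05. The call held with DESeq2 (adjusted p = 0.0179) and without any one library (edgeR adjusted p = 0.00349 to 0.0297). Of 2407 genes, 4.45% were called higher and 3.95% lower.

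In the same cells Ccr1 had 159, 151, 88.6 and 106 CPM (10, 8, 24 and 35 UMIs). Both controls lay above both SP11-treated libraries, as for 18% of these genes, and the difference did not pass (log2 fold change -0.61, SE 0.434, edgeR adjusted p = 0.421). Ccr2 made up 28.6% and 27.3% of the UMIs of both receptors in the controls, and 74.5% and 76.0% in Treated 1 and Treated 2. The control shares rest on 4 and 3 UMIs of Ccr2. In the myeloid gate without the added cells the share was 50% in Control 1, from 4 UMIs of each receptor. Control 2 had 0 UMIs of either there and so gave no share. Treated 1 and Treated 2 had 73.7% and 78.2% in that gate.

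Ligands of Ccr2 fell in the myeloid cells of the wider gate. Of 11 tested ligands of the members, 5 fell and 1 rose, and the list's median log2 fold change was -0.97. Ccl2, the main ligand of Ccr2, had 1084, 1771, 262 and 351 CPM (log2 fold change -2.15, SE 0.266, edgeR adjusted p = 2.57e-05). Ccl7, another of its ligands, had 542, 546, 159 and 196 CPM (-1.55, SE 0.299, adjusted p = 0.00341). Ccl8 also fell, from 1786 and 188 CPM to 133 and 12.1 CPM (adjusted p = 0.00110), with a wide spread within each group.

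Ccl4 and Ccl6 fell as well, and Ccl9, a ligand of Ccr1, rose from 542 and 339 CPM to 809 and 837 CPM (log2 fold change 0.94, edgeR adjusted p = 0.0314). Dock2, which links chemokine receptors to Rac and cell movement, rose from 112 and 113 CPM to 447 and 523 CPM (2.17, SE 0.370, adjusted p = 0.000932), and Dock8 also rose (adjusted p = 0.0404). Ltb4r1, the leukotriene B4 receptor, fell (-1.47, SE 0.344, adjusted p = 0.0120).

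Other markers were measured in the wider gate. The 9 gate markers together had 5373, 4352, 9872 and 10038 CPM, and the added cells are by their rule low in these markers. Of genes outside the gate, the monocyte and macrophage gene Fcgr1 had 494, 433, 222 and 360 CPM and S100a9 had 0, 0, 240 and 553 CPM. In Treated 2 Cxcr2 had 3 UMIs in the 9-marker gate and 8 in the wider gate, and Ccr7 had 0 and 4. In Treated 1 Cxcr2 had 0 and Ccr7 1 in both gates. Whether all added cells are monocytes or macrophages was not tested. The part of a changed mix of monocytes, macrophages and other cells in the rise of Ccr2 was not tested either.

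**Figure D4:**
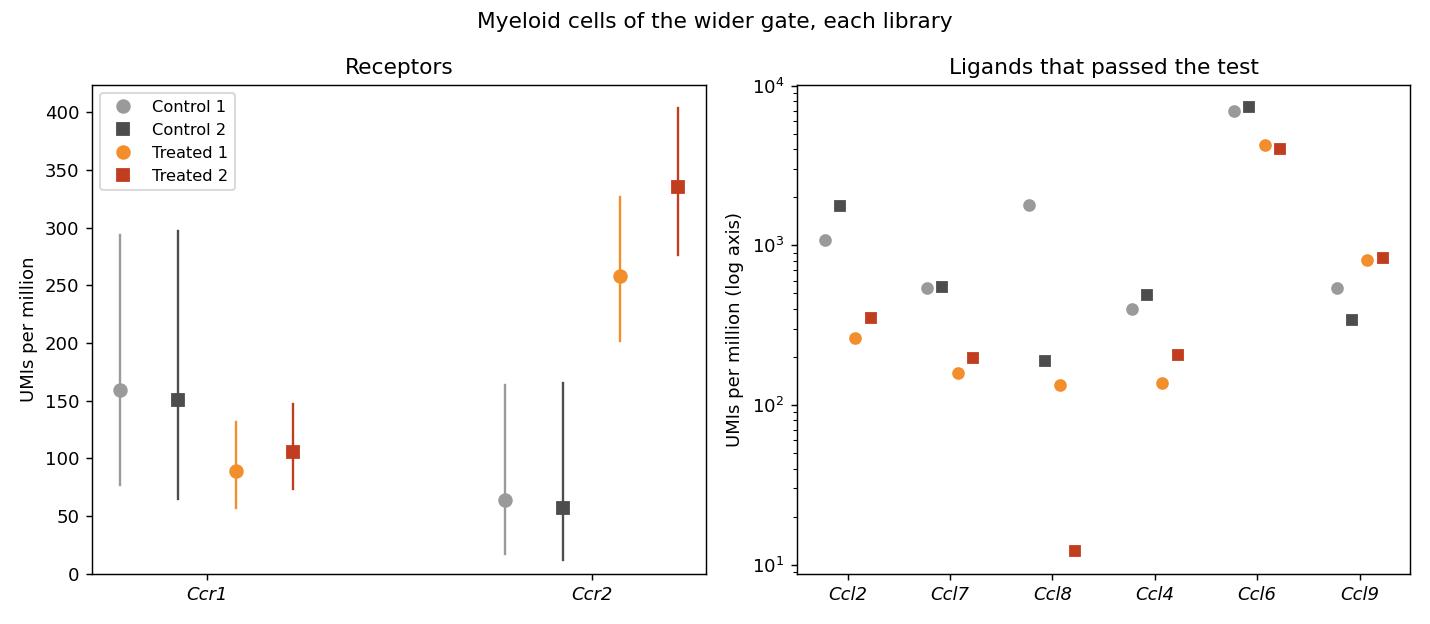
Points give CPM in the myeloid cells of the wider gate for each of the 4 libraries, on a linear axis for the receptors (lines are exact Poisson 95% intervals) and a logarithmic axis for the ligands. Ccr2 stood at 63.8 and 56.5 CPM without SP11 and at 258 and 336 CPM with it, while Ccl2 and Ccl7 lay lower in both SP11-treated libraries.

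The tumor gate used the keratins Krt8 and Krt18, so their presence there is the rule. Epcam, an epithelial gene outside the gate, had 196 to 227 CPM in these cells in the 4 libraries, although the labels give the cell type as lymphoma. The 6 T cell markers Cd3d, Cd3e, Cd3g, Trac, Trbc1 and Trbc2 together had 1.56, 0.221, 8.57 and 3.24 CPM, and the 3 B cell gate markers 0.728, 1.44, 28.9 and 14.5 CPM. Of the members, Ackr3 had the most UMIs in these cells over the 4 libraries, with 27, 24, 30 and 39, or 2.81, 2.65, 2.52 and 3.32 CPM. SP11-treated and control libraries overlapped, and the log2 fold change was -0.03 (SE 0.307, edgeR adjusted p = 0.974).

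Cx3cr1 was likewise present in each library, at 1.25, 1.55, 1.68 and 1.02 CPM (log2 fold change -0.16, SE 0.444, adjusted p = 0.908). Among the members tested, Cxcr2 was the one called higher (1, 0, 13 and 13 UMIs, log2 fold change 3.98, SE 0.930, edgeR adjusted p = 0.0253). Like Ccr1 and Cxcr5, it passed the filter on low counts only through the SP11-treated libraries, where it is high. The 5 members tested kept their result without that filter. In the comparison 1.86% of 11533 genes were called higher and 0.538% lower. The Cxcr2 groups did not overlap, and among 13091 genes 35.9% lay higher and 8.52% lower in both SP11-treated libraries. The call was lost with DESeq2 (adjusted p = 0.392) and without Control 1 (edgeR adjusted p = 0.106) or Control 2 (0.317). Ccr1 had 3, 0, 15 and 13 UMIs (2.68, SE 0.785, adjusted p = 0.0893) and Cxcr5 6, 3, 17 and 12 (1.21, SE 0.572, adjusted p = 0.341). Ccr2 had 1, 1, 30 and 9 UMIs and did not pass the filter.

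RNA of other cells was measured in the same tumor-gated cells. A UMI of the hemoglobin gene Hbb-bs was found in 43.2%, 48.0%, 99.8% and 100% of them. Lyz2 had 4.16, 3.76, 66.7 and 21.6 CPM, and the neutrophil marker S100a9 had 2.81, 5.86, 59.4 and 60.8 CPM. In the 791, 447, 706 and 247 tumor-gated cells without a UMI of Lyz2, Cd79a, Cd79b or S100a9, a subset chosen after seeing the data, Cxcr2 had 1, 0, 2 and 1 UMIs and Ccr1 1, 0, 2 and 0. The part of such RNA in the receptor UMIs was not tested beyond this subset. Ackr3 had 2.89, 2.59, 3.45 and 4.10 CPM in it (log2 fold change 0.34, edgeR adjusted p = 0.765).

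**Figure D5:**
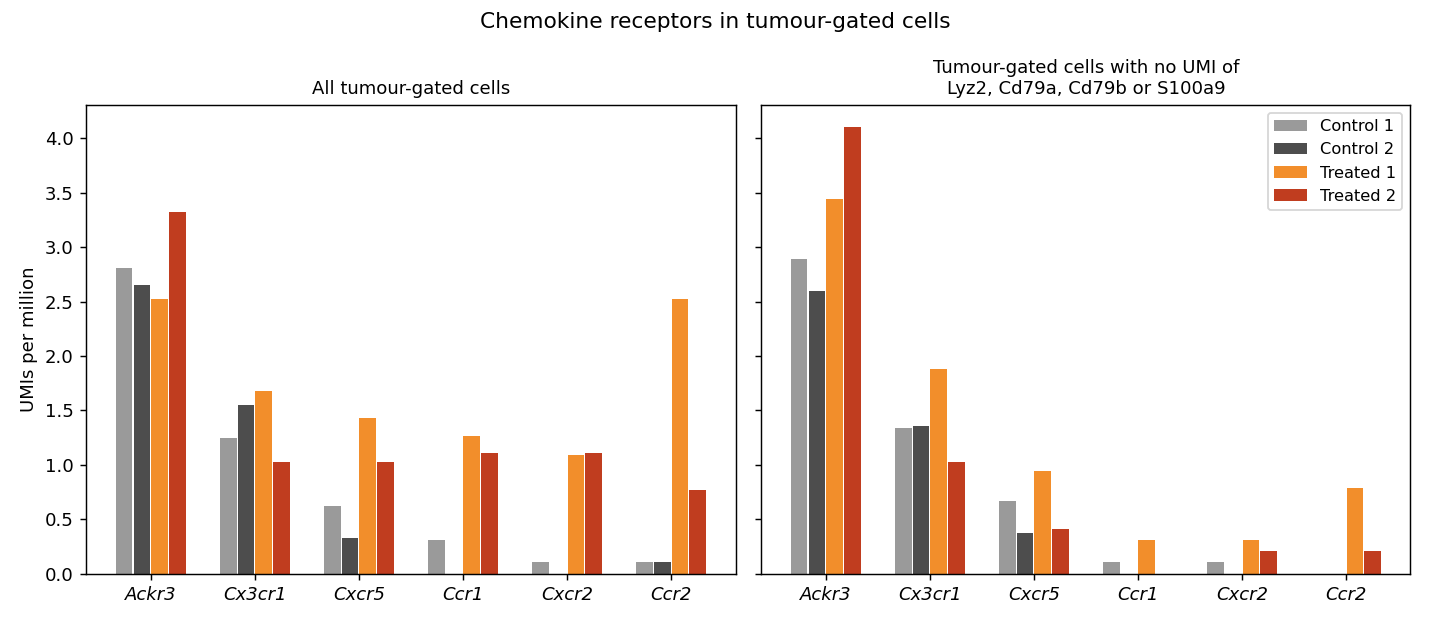
Bars give CPM in tumor-gated cells for each library, in all such cells (left) and in those without a UMI of 4 immune marker genes (right). Ackr3 and Cx3cr1 are present in all 4 libraries in both panels, and Cxcr2 falls from 1.09 and 1.11 CPM to 0.313 and 0.205 CPM in Treated 1 and Treated 2.

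A UMI of any of the 9 receptors was found in 5.11% and 6.97% of the tumor-gated cells of the controls, and in 9.54% and 16.1% of those of Treated 1 and Treated 2 (two-sided exact permutation test, p = 0.333, the smallest possible). With every cell thinned to 500 UMIs the shares were 0.475%, 0.398%, 0.493% and 0%. The median depth was 10959.5, 17245, 8874 and 19860.5 UMIs per tumor-gated cell, and thinning left 4, 2, 6 and 0 cells with a UMI, too few to compare.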

How the data were processed

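Single-cell suspensions of DLA tumors had been profiled on the 10x Genomics Chromium platform. For each library the authors deposited a matrix of raw counts of UMIs, genes by barcodes, made with Cell Ranger 7.1.0 per the file headers. The submitters' processing notes name mm10, while the study's methods name hg38, and the genes are mouse genes. No normalization had been applied to these counts.

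Barcodes with at least 200 genes and at most 10% mitochondrial UMIs were kept. Gates took the share and number of marker UMIs per cell: Cd79a, Cd79b, Ms4a1 (B); Cd3 and T cell receptor genes (T); Lyz2, Csf1r, Cd68 and others (myeloid); S100a8, S100a9, Retnlg, Csf3r (neutrophil); Flt3, Irf8, Cd209a and others (dendritic-like); Krt8, Krt18 (tumor). Members and lists were chosen with earlier results of these data known. Genes named besides the members are list genes past the threshold (in the class comparison at most 5 per class) and the 3 genes most alike in pattern.

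UMIs were summed per library and class and tested in edgeR 4.0.16 (R 4.3.3; TMM, filterByExpr, quasi-likelihood test, Benjamini-Hochberg over all genes tested, threshold 0.05), with the library as a term in the class comparison. CPM are UMIs scaled to 1000000 per sum. The design had foreseen more myeloid cells in each control, but Control 2 held 3. The wider gate takes cells with Tyrobp and Fcer1g at 0.3% or more. Scrublet (scanpy 1.11.5) used a score of 0.25, since its own threshold marked most cells of Control 1, and called 46, 10, 13 and 16 doublets, which were kept. The tests were tested on simulated data. The alternatives included DESeq2 1.42.0, other cell filters and gates, no filter on low counts, no hemoglobin genes, a replicate block and each library left out. Part of the list of other chemokine receptors is not reported here.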

Additional observations from a re-analysis of the deposited data

Results flagged for a closer look

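Receptor UMIs outside the gated classes were also counted. In barcodes outside the cell filters the 9 receptors together had 0 CPM in Control 1 and 0 CPM in Control 2, against 12.3 CPM in Treated 1 and 9.88 CPM in Treated 2, from 5 and 6 UMIs. A count of 0 in the 88140 UMIs of these Control 1 barcodes allows up to 34.0 CPM, so the controls are not shown to be lower. Cells that met more than 1 gate were found in the SP11-treated libraries, 36 and 13 cells, and had 73.9 CPM in Treated 1 and 72.5 CPM in Treated 2.

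Kept cells that met no gate had 73.9 CPM in Control 1, 38.8 CPM in Control 2, 80.9 CPM in Treated 1 and 143 CPM in Treated 2. In the controls Ccr1 had the most of these UMIs, 6 of 6 and 8 of 20. In the SP11-treated libraries Ccr2 did, with 19 of 40 and 33 of 68. The cells added in the wider myeloid gate are among these cells, so the counts are not separate from those above. The added cells held all 6 and 8 of these Ccr1 UMIs in the controls. In Treated 1 and Treated 2 they held 14 and 25 of these Ccr2 UMIs.

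Ccr1 had log2 ratios of opposite sign in 2 cell classes, and neither difference passed the test. The log2 ratio of the Treated to the Control mean CPM was -0.67 in the myeloid cells of the wider gate (edgeR adjusted p = 0.421) and 2.93 in tumor-gated cells (adjusted p = 0.0893). The groups did not overlap in either, as for 18% of all genes in that direction in the first and 35.9% in the second. In the 9-marker myeloid gate the log2 ratio was 0.36. The difference between the classes was not tested.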

How the results depend on the processing

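In all kept cells 1305 genes were called, 766 with DESeq2 and 2220 with a replicate block. In tumor-gated cells 276 were called, 125 with DESeq2 (83 higher, 42 lower, against 214 and 62), 436 without a filter, 992 with a replicate block, 124 without cells holding immune marker UMIs, and 85 to 377 with a library left out. In the myeloid gate 66 genes were called, 27 with at least 500 genes per cell, 9 with doubled share floors, 16 with DESeq2, 202 in the wider gate and 5 to 15 with a library left out. In the wider gate DESeq2 called 121 (29 higher, 92 lower, against 107 and 95), and 30 to 148 were called with a library left out. Of receptor and class pairs, 7 were called higher, 2 with at least 500 genes per cell, 4 with doubled share floors, 4 with DESeq2, 11 without a filter and 2 without the tumor class. Without the tumor class Ccr1, Cxcr2 and Cxcr3 did not pass the filter on low counts. Fewer cells or classes entered some of these fits, and the cause was otherwise not tested.

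Values near 0 changed sign. With a library left out, the log2 fold change ranged over all kept cells from -0.19 to 0.37 for Cx3cr1 (-0.086 without Control 1, -0.19 without Treated 1) and from -0.089 to 0.042 for Ackr3 (0.042 without Treated 1). In tumor-gated cells it ranged from -0.61 to 0.20 for Cx3cr1 (0.20 without Treated 2) and from -0.18 to 0.11 for Ackr3 (0.028 without Control 1, 0.11 without Treated 1). With doubled share floors these were 0.14 and 0.071, and Ackr3 had 0.34 without cells holding immune marker UMIs. Ccr1 in myeloid cells had -0.42 without Control 2 and -0.61 in the wider gate. Its value of 6.93 without Control 1 rests on the 3 cells of Control 2, which had 0 UMIs of Ccr1. Such a fitted value depends on the prior count and is no measure of a fold. The share of tumor-gated cells with any receptor UMI differed by -0.19 percentage points after thinning, against 6.77. Left-out libraries moved that difference between 3.50 and 10.0 points. The T cell share was 3.63 points higher in the SP11-treated libraries but 0.294 without Treated 2, and the neutrophil share 1.98 but 0.315. Whether same-numbered libraries form pairs is not known, and the main tests took the libraries as unpaired. In tumor-gated cells the deviations of the replicate 1 libraries from their group means correlated at r = 0.154. With 2 pairs this value cannot decide the question. The block made Ccr1 in tumor-gated cells pass (edgeR adjusted p = 0.00759).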
